A study of Mus musculus with 12 samples.

Results

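Transcripts of Ly6G+ spleen cells were compared between mice aged 7 days and mice aged 6 weeks. Ly6G is a surface protein carried mainly by neutrophils. The libraries were chosen by the age in their labels, 3 at 7 days and 3 at 6 weeks, out of 12 in the series. The other 6 libraries hold the same kind of cell at 2 days and 14 days. They are used below as a reference, and they also entered the model behind every test. All 38887 genes of the count table were considered, and 15494 of them had enough counts to be tested. The labels call the cells of each age PMN-MDSC, the usual short form for neutrophil-like myeloid cells that can restrain T cells, and the series asks what controls such an activity early in life. Both ages share tissue and sort marker. The labels name no treatment, genotype, strain, sex or number of mice per library, nor whether replicates are separate mice, and p-values then describe only how these libraries vary, which may be technical variation.

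Neutrophils form from dividing progenitors that fill their granules in turn: primary granules with myeloperoxidase and elastase, then secondary granules with lactoferrin, then gelatinase granules. On leaving the cycle they gain the receptors of mature cells, such as those for granulocyte colony-stimulating factor and for chemokines. In newborn mice the spleen still makes blood cells, red cells among them. Neutrophils also hold a standing level of interferon-induced genes, which are switched on when interferon receptors activate Jak kinases and Stat transcription factors.

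The 6 libraries held 36054986 to 38795913 counts, so counting error is small except for the rarest transcripts. Values are CPM, the count of a gene per 1000000 counts of the normalized library size. Spearman correlations across genes were 0.9931 to 0.9954 among the 7-day libraries, 0.9912 to 0.9936 among the 6-week libraries and 0.9305 to 0.9469 between the ages. The labelled cell type was checked against neutrophil markers, of which 11 of 11 were measured, 3 rose and 5 fell. They summed to 34469 to 37190.2 CPM at 7 days and 48555 to 52401 CPM at 6 weeks, and none was at 0. S100a9, an alarmin of neutrophils, measured 16306, 16518 and 17058 CPM at 7 days and 18464, 18900.1 and 19549 CPM at 6 weeks, and Ngp, a secondary granule gene, 20325, 23334 and 19797 CPM at 7 days and 16868, 30618 and 24726 CPM at 6 weeks. The sort marker gene Ly6g measured 94.5, 116 and 99.6 CPM at 7 days and 180.5, 185 and 168 CPM at 6 weeks. The libraries of 7 days also held transcripts of the Y chromosome and those of 6 weeks almost none. Ddx3y measured 24.8, 32.8 and 50 CPM at 7 days and had 0 counts at 6 weeks, at least 439-fold higher, and Eif2s3y was at least 285-fold higher against 0 counts. These bounds set the 6-week level at 3 counts per library. Xist, the X-linked transcript of female cells, measured 309, 442 and 187 CPM at 7 days and 235, 303 and 229 CPM at 6 weeks (adjusted p = 0.381). Sex and age therefore cannot be told apart in any value below.

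Many genes differed between the ages, in both directions. In edgeR's quasi-likelihood test 3790 genes (24.5%) were higher at 7 days and 4115 (26.6%) lower at a Benjamini-Hochberg adjusted p below 0.05, together 51.0% of 15494. That model held all 12 libraries, and with only the 2 ages fitted 4920 genes were higher and 4751 lower. "Rose" and "fell" below mean past this threshold, higher or lower at 7 days than at 6 weeks. The change was more than 2-fold for 1915 of the higher and 2109 of the lower genes, and more than 8-fold for 460 and 291. The libraries of the 2 ages did not overlap in 69.8% of genes tested. The median log2 fold change of all genes tested was -0.01. When libraries were scaled by their totals alone that median moved to 0.16, and 59.3% of called genes were higher in place of 47.9%, so changes are relative to that shift. The counts for gene groups below are to be read against these shares. Lists and members were chosen with earlier results of these data known, so a higher share in a group is not a test of it. Of 853 genes in 43 lists, 830 had enough counts to be tested, and these are the members called measured below.

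Stefin A genes were among the largest rises of genes with at least 20 CPM at the higher age. Stefins are inhibitors of cysteine proteases, and in mice a cluster of near-identical copies lies on chromosome 16. Stfa3 (chr16:36450537-36455392, GRCm38) measured 1925, 2070.2 and 2116 CPM at 7 days and 3.15, 2.7 and 2.43 CPM at 6 weeks, so that no library of one age came near the other (log2 fold change 9.53, SE 0.33, adjusted p = 4.75e-09). BC100530, another gene of the cluster (chr16:36359382-36367748), rose 512-fold, and Stfa2, Stfa1 and BC117090 rose 308-fold, 238-fold and 496-fold. Stfa2l1 rose less, 14.2-fold, from 165, 83.1 and 132 CPM at 6 weeks. Because the copies are so alike, how reads were divided among them is uncertain. The mean of Stfa3 was 2585 CPM at 2 days and 90.2 CPM at 14 days.

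Large falls, among genes of at least 20 CPM at the higher age, were in genes of several kinds. Cxcr1, a receptor for neutrophil-attracting chemokines, measured 0.123, 0.265 and 0.151 CPM at 7 days and 67.9, 28 and 37.8 CPM at 6 weeks, 246-fold lower (SE 0.48 on the log2 scale). Fgl2, which encodes a fibrinogen-like protein that macrophages and T cells secrete, measured 9.24, 13.2 and 7.72 CPM at 7 days and 744, 538 and 805 CPM at 6 weeks. Steap4, a metalloreductase gene of mature neutrophils, measured 5.47, 16.4 and 6.56 CPM at 7 days and 621, 387 and 465 CPM at 6 weeks, 51.9-fold lower although 7-day replicate 2 stood above its partners. Prr5l, Wfdc17 and Cass4 were 58.2-fold, 54.4-fold and 52.1-fold lower, and Igfbp6, which encodes a binding protein of insulin-like growth factors, 154-fold lower. Without 7-day replicate 2 the log2 fold changes of Steap4 and Igfbp6 were -6.35 and -8.27 in place of -5.70 and -7.27. The interferon-stimulated genes Ifit3b and Oasl2, with falls as large, are described below with their group.

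**Figure D1:**
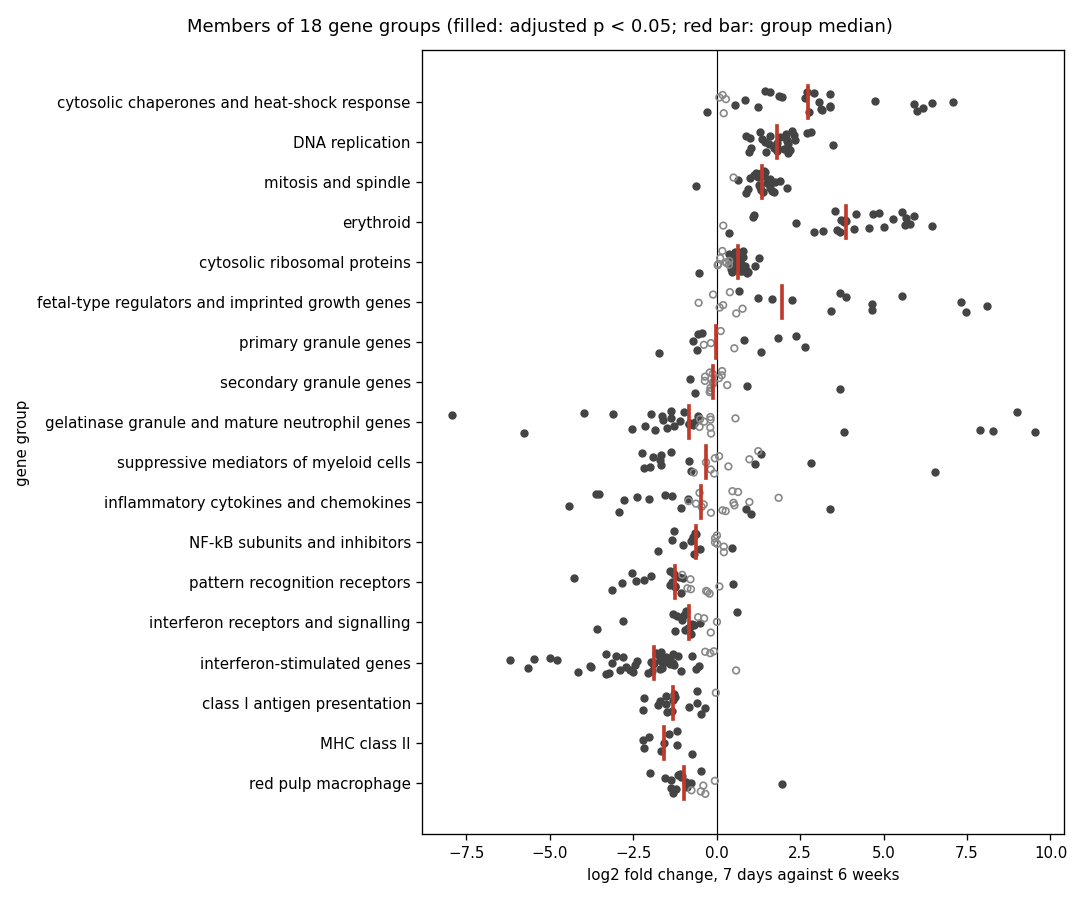
Log2 fold change of 7 days against 6 weeks (x axis, edgeR) for each member tested of 18 gene groups (y axis), with filled points past the adjusted p threshold, open points not past it and a bar at the group's median. Chaperone, DNA replication and erythroid genes lie mostly to the right of 0 and interferon-stimulated, class I and MHC class II genes mostly to the left, with medians of 2.73, 1.82, 3.88, -1.89, -1.32 and -1.57.

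Genes of chaperones, which fold proteins and hold them when they unfold under stress, and of the heat-shock response rose as a group at 7 days. The list covers cytosolic chaperones and the heat-shock response, with the mitochondrial Hspd1 and Hspe1 and the ubiquitin ligase Stub1 among its members. Of 28 measured, 23 rose and 1 fell, with a median log2 fold change of 2.73, and 26 did not overlap between the ages. Together the listed genes took 38922 to 43978 CPM at 7 days and 4375 to 4777 CPM at 6 weeks. The inducible heat-shock 70 gene Hspa1a (chr17:34969190-34972156) measured 13378, 10678 and 11471 CPM at 7 days and 109, 64.6 and 91.2 CPM at 6 weeks. It was thus 134-fold higher (log2 fold change 7.07, SE 0.45, adjusted p = 4.65e-07), with each 7-day library far above each 6-week library. Its neighbouring copy Hspa1b (chr17:34956436-34959238) measured 9849.6, 8048 and 8368 CPM at 7 days and 129, 73.2 and 96.4 CPM at 6 weeks, 88.1-fold higher. Both copies were lower still at 2 days and 14 days, where Hspa1a averaged 14.4 CPM and 15.4 CPM. The labels do not say whether the 7-day samples were handled differently from those of other ages, and a difference of that kind and age cannot be told apart in these libraries. Hsp90aa1, the stress-induced heat-shock 90, measured 2582, 2371 and 2863 CPM at 7 days and 103, 98.2 and 90.5 CPM at 6 weeks (26.8-fold higher). Its constitutive relative Hsp90ab1 rose less, 8.31-fold, and so did Hspa8, the constitutive heat-shock 70, at 10.6-fold. Hsph1, a large heat-shock 110 protein that swaps nucleotide on heat-shock 70, measured 1024, 932 and 1030.5 CPM at 7 days and 14.2, 18.9 and 13.8 CPM at 6 weeks, and Dnaja1 and Dnajb1, which deliver clients to it, rose 10.6-fold and 3.67-fold. The mitochondrial chaperonin pair Hspd1 and Hspe1 rose 8.76-fold and 8.89-fold. Hsf1, the transcription factor that switches these genes on, measured 23.8 ± 1.16 CPM against 19.6 ± 0.222 CPM and did not pass the test (adjusted p = 0.0825, log2 fold change 0.28), which it did without 2-day replicate 1 or 2 or 14-day replicate 1 (0.31, 0.31 and 0.28) and with only the 2 ages fitted. Stub1, a ubiquitin ligase that works with heat-shock 70, was the member that fell, with 32.9, 27.8 and 30.6 CPM at 7 days and 37.2, 37.8 and 37.7 CPM at 6 weeks. That call was lost when 7-day replicate 2 or 3, 6-week replicate 2 or 3 or 14-day replicate 2 was left out (log2 fold changes -0.24, -0.27, -0.30, -0.30 and -0.27), with library totals alone and with no filter on low counts. Against 2 days 22 members were higher and 0 lower, where 22.9% of all genes were higher and 25.8% lower, and against 14 days 23 were higher and 1 lower, where 21.9% were higher and 24.0% lower. These comparisons share the 7-day libraries. Per kilobase of exon, Hspa1a stood at 3991 CPM per kb at 7 days and 29.8 at 6 weeks, and Hspa8 at 1381 CPM per kb at 7 days and 130.00 at 6 weeks.

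Heat-shock factors bind repeats of GAA and its complement TTC. The core of such an element, GAANNTTC, which reads the same on both strands, was searched in the 250 bases before the RefSeq start of each gene (GRCm38.p6). It was found in 9 of 23 genes of the chaperone and heat-shock list with a promoter entry (39.1%) and in 7.73% of all 27025 genes. Stub1, the member that fell, is among the 9. Of genes tested 6.16% held the core. It was held by 7.28% of those that rose by more than 2-fold and 5.41% of those that fell by more than 2-fold. The windows below run in gene direction, 5′ to 3′, with the core in capitals, and show 2 near-identical heat-shock 70 promoters beside those of Hspe1 and Dnaja1, since these 4 genes rose and hold the core. The Hspa1a and Hspa1b windows of 125 bases are identical at 124 positions. They lie at chr17:34972157-34972281 and chr17:34959239-34959363 (minus strand) and at chr1:55088028-55088087 and chr4:40722308-40722367 (plus strand).
Hspa1a: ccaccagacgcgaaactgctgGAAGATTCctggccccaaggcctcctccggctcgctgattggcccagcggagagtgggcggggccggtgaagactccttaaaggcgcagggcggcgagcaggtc
Hspa1b: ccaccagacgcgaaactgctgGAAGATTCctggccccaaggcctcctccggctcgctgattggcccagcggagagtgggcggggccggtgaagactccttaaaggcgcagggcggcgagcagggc
Hspe1: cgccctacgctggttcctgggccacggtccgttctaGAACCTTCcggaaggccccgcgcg
Dnaja1: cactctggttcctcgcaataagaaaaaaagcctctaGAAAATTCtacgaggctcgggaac
A match to these letters is a description of the promoter, not a measured binding site.

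**Figure D2:**
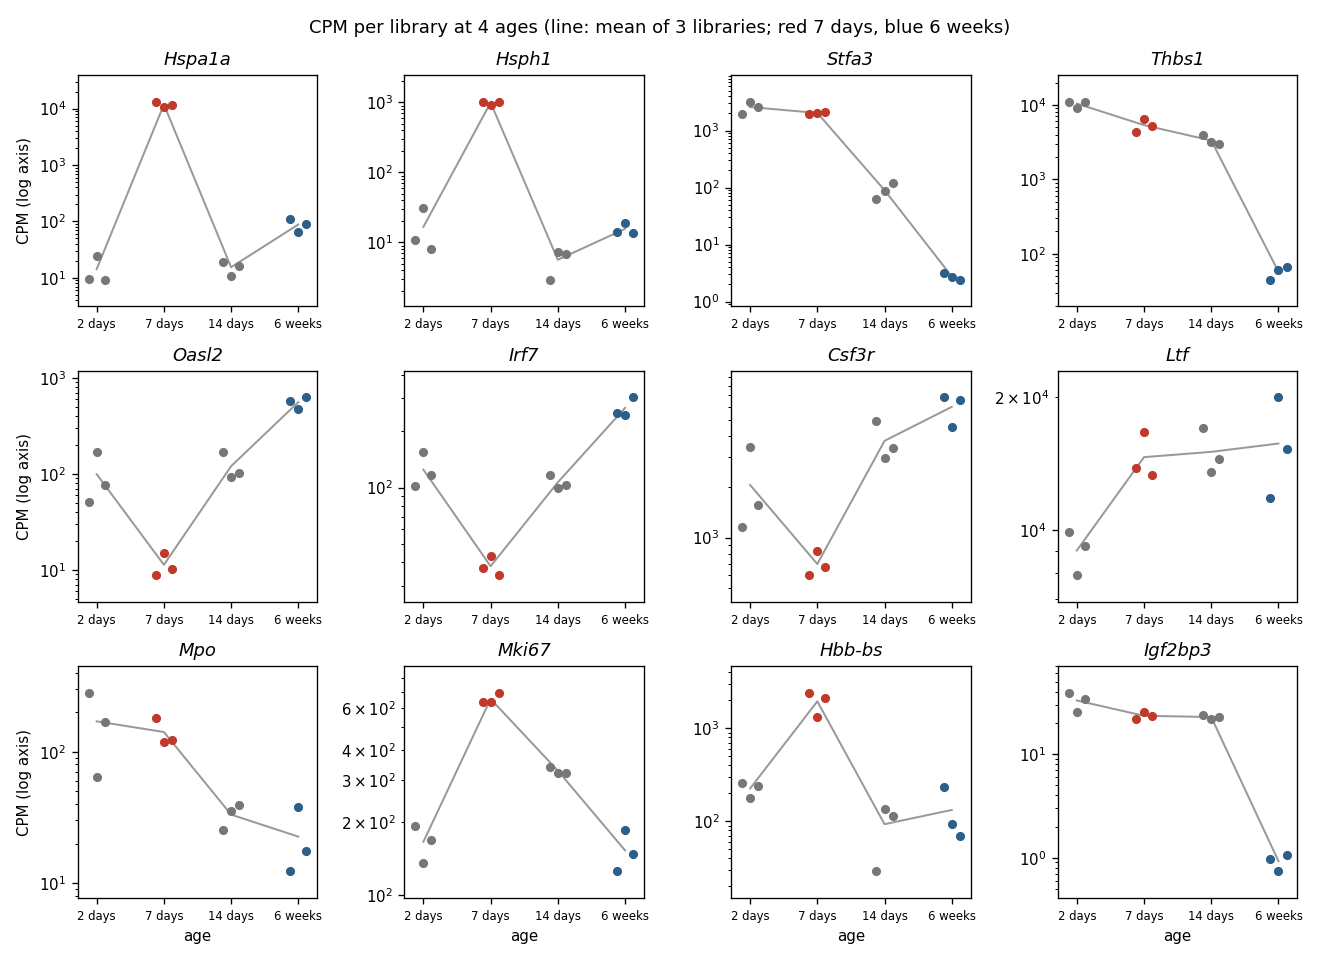
CPM on a log axis in each library (points) at 2 days, 7 days, 14 days and 6 weeks (x axis) for 12 genes, 1 panel each, with a line through the means of 3 libraries. Hspa1a averages 11842 CPM at 7 days and 14.4, 15.4 and 88.3 CPM at 2 days, 14 days and 6 weeks, while the means of Ltf run from 9007 to 15720.1 CPM.

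Genes induced by interferon moved the other way. Of 49 interferon-stimulated genes measured, 45 fell and 0 rose, with a median log2 fold change of -1.89, and 47 did not overlap. Summed over the list they took 2811 to 3631 CPM at 7 days and 8987 to 10349.9 CPM at 6 weeks. Oasl2, which encodes a 2′-5′-oligoadenylate synthetase-like protein, measured 8.73, 15 and 10.1 CPM at 7 days and 577, 474 and 629 CPM at 6 weeks, 49.8-fold lower (log2 fold change -5.64, SE 0.46, adjusted p = 2.41e-06). Ifit3, which binds the antiviral Ifit complex, measured 1.59, 3.04 and 1.46 CPM at 7 days and 73.3, 70 and 125 CPM at 6 weeks, and its neighbour Ifit1, which binds viral RNA ends, 1.86, 1.93 and 1.89 CPM at 7 days and 54.4, 44.4 and 83.4 CPM at 6 weeks. In both, the highest 7-day library stood far below the lowest 6-week library. Ifit3b, a near copy of Ifit3 whose reads may have been divided between the 2, fell 73.4-fold. Isg15, a ubiquitin-like modifier, measured 6.86, 6.01 and 6.82 CPM at 7 days and 54.5, 45.6 and 74.6 CPM at 6 weeks (8.87-fold lower), and Rsad2, the enzyme viperin, 30, 29.4 and 34.4 CPM at 7 days and 184, 143 and 237 CPM at 6 weeks (6.02-fold lower). Ifitm1 and Ifitm3, membrane proteins that block virus entry, fell 27.3-fold and 3.18-fold. The 4 members without a call were Cmpk2, Eif2ak2, Bst2 and Samd9l, named here because of that, with log2 fold changes of -0.34, -0.19, -0.08 and 0.58. Without 2-day replicate 2 Cmpk2 passed as lower and Samd9l as higher (-0.31 and 0.61), and Samd9l also without 2-day replicate 1 (0.62) and with library totals alone. Both passed with only the 2 ages fitted. Slfn4, a schlafen gene that myeloid cells express, stood at 881 ± 179 CPM against 1845 ± 63.7 CPM and fell 2.09-fold. Against 2 days 29 of the 49 were lower at 7 days and 6 higher, and against 14 days 30 were lower and 3 higher.

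The interferon-stimulated response element, to which Stat2 and Irf9 bind as part of a complex, contains repeats of GAAA. Its core GAAANNGAAA, on either strand, was found before the start of 17 of 39 interferon-stimulated genes with a promoter entry (43.6%), against 3.46% of all genes. Of genes tested 3.31% held it. Of genes that fell by more than 2-fold 6.23% did, and of those that rose by more than 2-fold 2.4%. The windows of 4 members that fell are shown with the core in capitals, on whichever strand it reads. Overlapping matches in Isg15 run together. They lie at chr19:34640769-34640828 and chr19:34583364-34583423 (plus strand) and chr4:156200854-156200913 and chr12:26456538-26456597 (minus strand).
Ifit1: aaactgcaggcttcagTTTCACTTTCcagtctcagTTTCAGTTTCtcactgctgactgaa
Ifit3: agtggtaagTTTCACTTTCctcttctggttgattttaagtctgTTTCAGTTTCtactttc
Isg15: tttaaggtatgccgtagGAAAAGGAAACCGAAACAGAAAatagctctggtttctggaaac
Rsad2: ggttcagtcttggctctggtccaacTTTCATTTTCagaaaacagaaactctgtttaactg
Oasl2 had no match in its 250 bases, which says only that these letters are not there.

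The receptors and signalling genes upstream fell less. Of 20 measured, 15 fell and 1 rose, with a median log2 fold change of -0.84. Of the type I receptor's chains, Ifnar1 fell (68.3 ± 6.03 CPM against 129 ± 11.6 CPM) and Ifnar2 was the member that rose (199.99 ± 4.3 CPM against 131 ± 9.14 CPM, log2 fold change 0.61). Irf7, the transcription factor that amplifies the response, measured 37.1, 43 and 34 CPM at 7 days and 249.8, 245 and 303 CPM at 6 weeks (6.99-fold lower). Stat2 fell 2.4-fold, and its partner Irf9 1.4-fold, a call lost without 7-day replicate 1 or 3 or 6-week replicate 3 (log2 fold changes -0.43, -0.44 and -0.44 in place of -0.49). Socs3, an inhibitor of cytokine signalling, had the largest fall of the list: it measured 49, 58.3 and 45.3 CPM at 7 days and 802, 427 and 613 CPM at 6 weeks, 12.1-fold lower.

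Class I antigen presentation fell with them: 16 of 17 genes fell and 0 rose. The class I heavy chain H2-D1 measured 1696, 1835 and 1644 CPM at 7 days and 4449, 3516 and 4483 CPM at 6 weeks, and H2-K1 431, 319.9 and 373 CPM at 7 days and 1016, 1039.7 and 1151 CPM at 6 weeks. Their light chain B2m fell 1.51-fold, and the peptide transporter gene Tap1 4.64-fold. Nlrc5, the activator of class I transcription, fell 3.24-fold. Of 26 pattern recognition receptors and their partners, 17 fell and 1 rose. Clec7a, the receptor for fungal glucan also called dectin-1, measured 28.3, 34.6 and 30.4 CPM at 7 days and 671, 444 and 702 CPM at 6 weeks. Nlrp3, the inflammasome sensor, fell 5.39-fold, and Myd88, the adaptor of most Toll-like receptors, 4.54-fold. Tlr2 did not pass (135 ± 15.1 CPM against 128 ± 11.7 CPM), and Tlr4 missed the threshold (41.8 ± 5.27 CPM against 76.8 ± 14.6 CPM, adjusted p = 0.0761, log2 fold change -0.88), but passed it without 2-day replicate 1 or 2 (-0.84 and -0.85), in DESeq2 and with only the 2 ages fitted. Pycard, the inflammasome adaptor, rose 1.41-fold, a call that was lost without 6-week replicate 1 or 3 (log2 fold changes 0.43 and 0.49 in place of 0.50).

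Monocytes and macrophages also transcribe many of these genes, and more of their markers fell than rose at 7 days. Of 20 red pulp macrophage markers 14 fell and 1 rose, with a sum of 3313 to 3496 CPM at 7 days and 6599 to 7006 CPM at 6 weeks. Of 13 monocyte markers 7 fell, 1 rose and 5 did not pass, with log2 fold changes from -2.25 to 3.30. The monocyte markers summed to 1137 to 1210.3 CPM at 7 days and 2301 to 2438 CPM at 6 weeks. Csf1r, given below, was a large part of that sum. Of 9 MHC class II genes 9 fell, with a sum of 978 to 1226 CPM at 7 days and 2951 to 3685 CPM at 6 weeks. No defining marker of these lists was at 0: Adgre1, Cd5l and Csf1r, for example, stood at 163 ± 4.43 CPM against 227 ± 17.6 CPM, 53.6 ± 1.12 CPM against 139.6 ± 6.76 CPM and 353 ± 29.4 CPM against 1176 ± 66.5 CPM. The call of Adgre1 was lost without 7-day replicate 1 or 3 or 6-week replicate 3 (log2 fold changes -0.43, -0.44 and -0.42 in place of -0.48) and with library totals alone. The macrophage marker Vcam1 did not pass (523 ± 18.1 CPM against 662 ± 14.5 CPM), but passed without 14-day replicate 1 (log2 fold change -0.34) and with only the 2 ages fitted, and Marco rose 3.89-fold. Against 2 days 18 of the 20 macrophage, 6 of the 13 monocyte and 8 of the 9 class II genes were higher at 7 days. There 1, 2 and 0 were lower. Against 14 days 13, 3 and 0 were higher and 1, 7 and 8 lower. In the same comparisons 29 and 30 of the 49 interferon-stimulated genes were lower and 6 and 3 higher. Of all genes 22.9% were higher and 25.8% lower against 2 days, and 21.9% and 24.0% against 14 days. The part of macrophages and monocytes in the fall of interferon-induced and class I genes was not tested, and in sorted pools fewer cells of a type and less RNA per cell cannot be told apart.

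**Figure D3:**
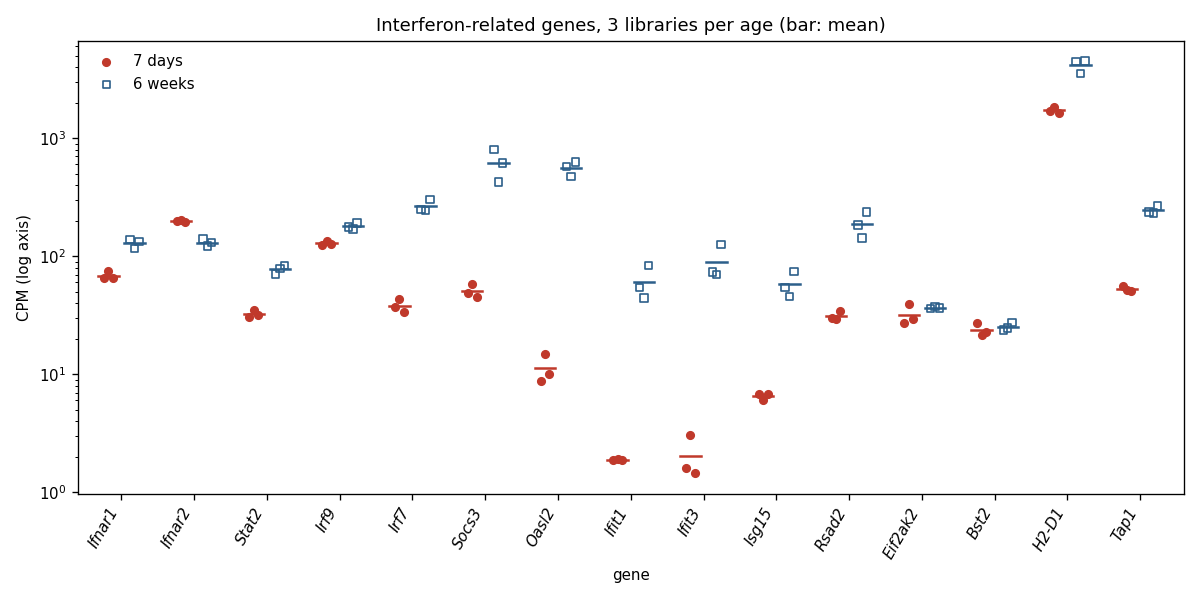
CPM on a log axis (y axis) in each 7-day library (filled circles) and each 6-week library (open squares) for 15 interferon-related genes (x axis), with the mean of 3 libraries as a bar. The groups do not overlap in any gene shown except Eif2ak2 and Bst2, and Ifnar2 is higher at 7 days.

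Among genes of inflammation more fell than rose. Of 28 inflammatory cytokines and chemokines, 11 fell, 3 rose and 14 did not pass, where 51.0% of all genes tested passed. Without 14-day replicate 1, 5 of them rose. Il1b, the gene of interleukin 1 beta, measured 64.4, 92.3 and 72.1 CPM at 7 days and 1841, 1169 and 1872 CPM at 6 weeks, 21.3-fold lower (log2 fold change -4.42, SE 0.35, adjusted p = 2.15e-06). Cxcl2, a chemokine for neutrophils, measured 30.7, 44.9 and 35.6 CPM at 7 days and 396, 182 and 179.8 CPM at 6 weeks, with 6-week replicate 1 above its partners (6.81-fold lower). Ccl6 fell 12.3-fold and Tnfsf14, a TNF family ligand also called LIGHT, 7.66-fold. Osm, which encodes the cytokine oncostatin M, and Vegfa, the vascular growth factor, rose 1.85-fold and 2.03-fold. Il6 was the other member that rose, at a level below 1 CPM in each library (0.76, 0.688 and 0.654 CPM at 7 days), and its log2 fold change was 3.99 without 6-week replicate 3 in place of 3.39. Tnf measured 33.5 ± 3.97 CPM against 29.7 ± 3.46 CPM and did not pass. Of 17 NF-kB subunits and inhibitors 10 fell and 1 rose. Relb and Nfkb2, the pair of the alternative pathway, fell 3.38-fold and 2.53-fold, and Nfkbia, the feedback inhibitor, 1.71-fold. Rel was the member that rose (33.7 ± 2.87 CPM against 24.5 ± 2.74 CPM), a call lost without 6-week replicate 2 or 3 or 7-day replicate 2 (log2 fold changes 0.46, 0.38 and 0.39 in place of 0.46). Of 27 immediate early genes, which cells switch on within minutes of a stimulus or of handling, 11 fell and 4 rose. Dusp1, a phosphatase that ends MAP kinase signals, measured 409, 521 and 403 CPM at 7 days and 3583, 2212 and 2988 CPM at 6 weeks, and Fos 558, 663 and 578 CPM at 7 days and 2007, 1527 and 2254 CPM at 6 weeks. Jun stood at 456 ± 12.2 CPM against 438 ± 21.7 CPM and did not pass. Fosl1, another AP-1 subunit, rose 36.4-fold from under 1 CPM, and Myc, a driver of growth, measured 67.7, 55.1 and 64.2 CPM at 7 days and 20.3, 18 and 16.6 CPM at 6 weeks (3.4-fold higher). Against 2 days 18 of the 27 were lower and 2 higher, and against 14 days 19 were lower and 1 higher.

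Mediators by which myeloid cells restrain T cells went both ways. Of 23 measured, 4 rose and 10 fell. Thbs1, which encodes thrombospondin 1, a ligand of Cd47 and an activator of TGF-beta, had the largest rise (chr2:118111876-118127133). It measured 4355, 6416 and 5287 CPM at 7 days and 45.1, 60.4 and 67.6 CPM at 6 weeks, 92.8-fold higher (log2 fold change 6.54, SE 0.26, adjusted p = 1.11e-08), and averaged 10431 CPM at 2 days and 3329 CPM at 14 days. Nt5e, the ectoenzyme CD73 that makes adenosine, measured 85.9, 111 and 102 CPM at 7 days and 10.9, 18.3 and 12.8 CPM at 6 weeks (7.13-fold higher), whereas Entpd1, the CD39 that supplies its substrate, measured 97.1, 118 and 102 CPM at 7 days and 441, 347 and 408 CPM at 6 weeks and fell 3.78-fold. The scavenger receptors Cd36 and Olr1 (Lox-1) rose 2.5-fold and 2.22-fold. Cd274, the checkpoint ligand PD-L1, measured 11.6, 12.9 and 11.9 CPM at 7 days and 54.9, 52.7 and 64.7 CPM at 6 weeks and fell 4.74-fold. Arg2, the mitochondrial arginase, fell 2.56-fold, and Tgfb1, the growth factor TGF-beta 1, 1.69-fold. Arg1, Nos2 and Il10, which encode arginase 1, the inducible nitric oxide synthase and interleukin 10, did not pass and were low: 0.518 ± 0.11 CPM against 0.215 ± 0.181 CPM, 1.22 ± 0.757 CPM against 1.52 ± 1.24 CPM and 0.378 ± 0.0971 CPM against 0.19 ± 0.0224 CPM. Arg1 passed without 6-week replicate 2 (log2 fold change 2.19 in place of 1.24) and with library totals alone, and Il10 with only the 2 ages fitted. Slc27a2, a fatty acid transporter, measured 0.196, 0.635 and 0.327 CPM at 7 days and 1.76, 1.56 and 1.89 CPM at 6 weeks and fell. Of 17 genes of prostaglandin and leukotriene synthesis 2 rose and 5 fell. Ptgs2, the inducible cyclooxygenase, measured 23.2, 37.4 and 31.2 CPM at 7 days and 114, 84.5 and 171 CPM at 6 weeks (4.03-fold lower), while Ptges, the synthase of prostaglandin E2, did not pass (13.5 ± 2.15 CPM against 10.6 ± 2.56 CPM), but passed without 6-week replicate 2 (log2 fold change 0.52 in place of 0.35) and when scaled by library totals alone. Alox5, which starts leukotriene synthesis, fell 1.48-fold, a call lost without 7-day replicate 1 or 3 (-0.46 and -0.46 in place of -0.56). The 2 that rose were Ptges3, which is also a heat-shock 90 co-chaperone, and Ptgs1, at 2.68-fold and 1.29-fold, and the call of Ptgs1 was lost without 7-day replicate 2 or 6-week replicate 1 (0.31 and 0.29 in place of 0.37). The counts of this list moved with single libraries: there was 1 rise without 7-day replicate 2 or 6-week replicate 1, there were 4 without 6-week replicate 2 or 2-day replicate 2, and 3 falls without 7-day replicate 1 or 3.

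Markers of neutrophil maturity were lower at 7 days, while most secondary granule genes did not pass the test. Of 35 gelatinase granule and mature neutrophil genes, 22 fell and 5 rose, the rises being stefin A genes. Csf3r, the receptor of granulocyte colony-stimulating factor, measured 597, 829 and 666 CPM at 7 days and 6815, 4539 and 6575 CPM at 6 weeks, 8.57-fold lower (log2 fold change -3.10, SE 0.38, adjusted p = 3.99e-05). Cxcr2, a chemokine receptor that draws neutrophils out of the marrow, measured 394, 529.5 and 407 CPM at 7 days and 1619, 1112 and 1449 CPM at 6 weeks (3.14-fold lower). Cd101, a marker of mature neutrophils, fell 15.8-fold, and the selectin ligand Selplg 5.84-fold. Mmp9, the gelatinase itself, fell 1.78-fold (3323 ± 533 CPM against 5902 ± 366 CPM). S100a8 and Itgam measured 8978 ± 318 CPM against 12823 ± 427 CPM and 1771 ± 237 CPM against 2296 ± 165 CPM and did not reach significance (adjusted p = 0.0562 and 0.0872). Without 2-day replicate 2 both passed (log2 fold changes -0.48 and -0.35 in place of -0.51 and -0.37), and S100a8 also without 2-day replicate 1 (-0.48). Both also passed in DESeq2 and with only the 2 ages fitted, and S100a8 in limma-voom and with library totals alone. Against 2 days 20 of the 35 were lower at 7 days and 1 higher, and against 14 days 15 were lower and 6 higher.

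Of 17 secondary granule genes 2 rose and 2 fell. Ltf, the gene of lactoferrin, measured 13845, 16728 and 13360.2 CPM at 7 days and 11864, 20004 and 15292 CPM at 6 weeks, and the libraries of the 2 ages overlapped (log2 fold change -0.10, SE 0.21). Camp, the gene of cathelicidin, stood at 4792 ± 368 CPM against 4282 ± 676 CPM and did not pass. Olfm4, which marks a subset of neutrophils, was the exception of largest size: it measured 1121, 1619 and 1173 CPM at 7 days and 97.2, 111 and 95.4 CPM at 6 weeks and rose 12.9-fold. Mmp8, the neutrophil collagenase, rose 1.87-fold, and Hp (haptoglobin) and Tcn2 (transcobalamin 2) fell 1.74-fold and 1.57-fold. Of 14 primary granule genes 5 rose and 5 fell. Of the rises 4 were in the proteases and peroxidase made at the promyelocyte stage, and the other was Fcnb, which encodes ficolin B and whose call was lost without 6-week replicate 1 or 3 (log2 fold changes 0.69 and 0.80 in place of 0.83). Mpo, the myeloperoxidase, measured 182, 119 and 123 CPM at 7 days and 12.3, 37.9 and 17.4 CPM at 6 weeks, 6.25-fold higher. Its log2 fold change was 3.25 without 6-week replicate 2 in place of 2.64. Ctsg, Elane and Prtn3 rose 5.23-fold, 3.54-fold and 2.5-fold. The call of Prtn3 was lost without 7-day replicate 1 or 6-week replicate 1 or 3 (log2 fold changes 1.19, 1.15 and 1.19 in place of 1.32). Without 6-week replicate 1 or 3 the number of rises in this list was 3, and scaled by library totals alone the falls were 2. Srgn, the proteoglycan that packs granules, had the largest fall, 3.31-fold. Of 8 genes of the NADPH oxidase, which makes the respiratory burst, 2 fell (Rac1 and Rac2) and 0 rose, and its catalytic subunit Cybb stood at 1698 ± 196 CPM against 1615 ± 320.4 CPM. Of 7 genes in the list of lactoferrin and its candidate receptors, 2 rose and 4 fell. Tfrc, the transferrin receptor, which erythroid precursors carry at high level, rose 7.59-fold. Itln1, an intestinal lactoferrin receptor, had 0 counts at 7 days and 4.32, 2.49 and 4.07 CPM at 6 weeks, at least 47.7-fold lower.

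**Figure D4:**
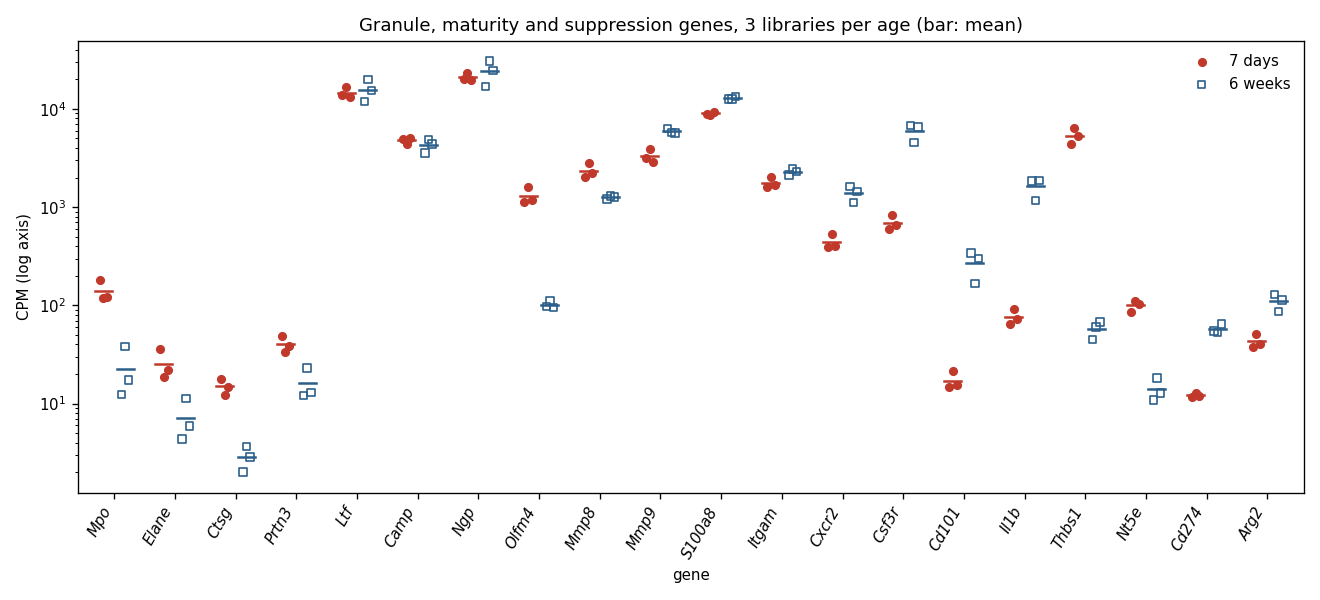
CPM on a log axis (y axis) in each 7-day library (filled circles) and each 6-week library (open squares) for 20 genes of neutrophil granules, maturity and suppression (x axis), with the mean of 3 libraries as a bar. Mpo, Elane, Ctsg and Prtn3 lie higher at 7 days, Ltf, Ngp and Camp overlap between the ages, and Csf3r, Cxcr2, Cd101 and Il1b lie lower at 7 days.

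Genes of the dividing cell rose together. Of 29 DNA replication genes 29 rose, with a median log2 fold change of 1.82, and the list summed to 1338 to 1612 CPM at 7 days and 428 to 512 CPM at 6 weeks. Mcm6, a subunit of the replicative helicase, measured 111, 93.4 and 107 CPM at 7 days and 23.8, 26.7 and 20.5 CPM at 6 weeks (4.39-fold higher), and Cdc6, which loads that helicase, 33.2, 25.5 and 32 CPM at 7 days and 5.27, 4.66 and 4.1 CPM at 6 weeks (6.46-fold higher). Pcna, the sliding clamp, rose 3.29-fold, and Rrm2, the regulated subunit of ribonucleotide reductase, 2.81-fold. Of 28 genes of mitosis and the spindle 26 rose and 1 fell, with a median of 1.37. Mki67, the proliferation marker Ki-67, measured 631, 636 and 690.4 CPM at 7 days and 125, 185 and 148 CPM at 6 weeks (4.27-fold higher), and Top2a, which untangles chromosomes, 333, 342 and 346 CPM at 7 days and 87.4, 135 and 104 CPM at 6 weeks. The member that fell was Kif23 (56 ± 3.74 CPM against 85.5 ± 4.96 CPM), a kinesin of cell cleavage. Against 2 days 27 of 29 replication and 27 of 28 mitosis genes were higher at 7 days, and against 14 days 25 and 12 were. E2F factors, which drive replication genes, bind TTTCCCGC or TTTGGCGC. Either form, on either strand, was found in the 250 bases before the start of 5 of 23 replication genes with a promoter entry (21.7%), 1.51% of all genes and 2.75% of genes tested. Of genes that rose by more than 2-fold 3.98% held it, and of those that fell by more than 2-fold 1.44%. Among mitosis and spindle genes 0 of 23 held it, and among class I genes, most of which fell, 2 of 14 (14.3%). The windows of 4 of the 5 replication genes are shown with the element in capitals, at chr8:75109334-75109393 and chr11:98907986-98908045 (plus strand) and chr1:128359736-128359825 and chr5:138172014-138172073 (minus strand).
Mcm5: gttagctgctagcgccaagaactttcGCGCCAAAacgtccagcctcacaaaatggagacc
Mcm6: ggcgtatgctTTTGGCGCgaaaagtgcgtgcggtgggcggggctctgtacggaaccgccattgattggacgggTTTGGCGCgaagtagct
Mcm7: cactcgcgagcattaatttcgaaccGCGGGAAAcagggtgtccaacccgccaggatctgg
Cdc6: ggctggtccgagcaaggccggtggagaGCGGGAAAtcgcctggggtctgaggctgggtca
Mcm5 and Mcm7 rose 3.53-fold and 2.96-fold.

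Of 20 regulators of granulocytes and progenitors 11 rose and 5 fell. Cebpe, which drives secondary granule genes, measured 518, 479.7 and 476 CPM at 7 days and 181, 291 and 230.3 CPM at 6 weeks (2.1-fold higher), a call lost without 6-week replicate 1 or 3 (log2 fold changes 0.91 and 1.06 in place of 1.07), while Cebpb, which acts in emergency granulopoiesis, fell 3.18-fold. Myb, a factor of dividing progenitors, measured 73.3, 63.3 and 73.3 CPM at 7 days and 11.5, 19.5 and 15.2 CPM at 6 weeks (4.54-fold higher). Cd34, a progenitor surface protein, and Gfi1b, a repressor of red cell and platelet precursors, rose 14-fold and 27.8-fold. Gfi1, its counterpart in granulocytes, missed the threshold (23.6 ± 2.76 CPM against 17.2 ± 3.93 CPM, adjusted p = 0.0926, log2 fold change 0.46), but passed it without 6-week replicate 2 or 2-day replicate 1 or 2 (0.63, 0.49 and 0.49) and with only the 2 ages fitted. Kit, the stem cell factor receptor, did not pass (24.9 ± 2.95 CPM against 22.7 ± 7.26 CPM).

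Erythroid markers rose beside these groups. Of 27 erythroid markers 26 rose and 0 fell, with a median log2 fold change of 3.88, and summed to 4846 to 7593 CPM at 7 days and 663 to 1154 CPM at 6 weeks. Hbb-bs, the adult beta-globin, measured 2394, 1318 and 2139 CPM at 7 days and 234, 94.1 and 69.6 CPM at 6 weeks, and Gata1, the red cell transcription factor, 19.1, 13.5 and 15.5 CPM at 7 days and 0.474, 0.291 and 0.164 CPM at 6 weeks. Among the 6-week libraries replicate 1 was the highest in 27 of these 27 genes: the log2 fold change of Hbb-bs was 4.58 without it in place of 3.88. No defining marker was at 0 at either age. Against 2 days 24 of the 27 were higher at 7 days and against 14 days 27 were. The part of erythroid cells in the rise of chaperone and replication genes was not tested.

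Other lineages differed as well. Of 19 mast cell markers 15 rose and 1 fell, and the list summed to 665 to 870.5 CPM at 7 days and 1439 to 1659 CPM at 6 weeks, much of it from the member that fell, Hdc (histidine decarboxylase), which neutrophils also express (599 ± 101 CPM against 1476 ± 109.8 CPM). The chymase gene Mcpt4 measured 18.2, 26 and 19.5 CPM at 7 days and 0.112, 0.106 and 0.109 CPM at 6 weeks (189-fold higher), and the tryptase gene Tpsb2 16.7, 23.7 and 18.4 CPM at 7 days and 0.0279, 0.0795 and 0.109 CPM at 6 weeks. Both were far more abundant at 2 days, with means of 1025 CPM and 1403 CPM. Tpsab1, Tph1 and Mrgprb1, all mast cell genes, had 0 counts at 6 weeks. Of 10 eosinophil markers 5 rose and 2 fell. The granule genes Prg2 and Epx rose 55.7-fold and 122-fold, and the surface receptors Ccr3 and Siglecf fell 6.11-fold and 6.94-fold. Il5ra, another surface receptor of the list, did not pass (0.986 CPM against 1.055 CPM, log2 fold change -0.098). Prg2 measured 131, 86.9 and 96.6 CPM at 7 days and 2.59, 2.54 and 0.492 CPM at 6 weeks. Of 6 basophil markers 3 rose and 1 fell, with Mcpt8 13.5-fold higher. Its log2 fold change was 4.78 without 6-week replicate 2 in place of 3.75. Of 11 megakaryocyte and platelet markers 6 rose and 1 fell, Pf4 11.7-fold higher, and of 15 stromal and endothelial markers 10 rose and 2 fell (1 without 7-day replicate 1 or 3 or any 1 of the 6-week libraries), Sparc 44.5-fold higher at 11.5 ± 2.26 CPM against 0.255 ± 0.113 CPM.

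Of 14 B cell markers 4 rose and 2 fell. Cd79a, part of the B cell receptor, did not pass (182 ± 12.6 CPM against 167 ± 25.4 CPM). There was 1 B cell rise without 7-day replicate 1 or 6-week replicate 1 or 2, there were 2 without any 1 of 7-day replicates 2 and 3, 6-week replicate 3 and 2-day replicate 3, and 7 without 14-day replicate 1, while without 7-day replicate 1 there was 1 fall. Of 9 plasma cell markers 5 fell and 1 rose, the falls being 3 without 6-week replicate 1 and the rises 2 without 14-day replicate 1. Igha, the constant region of immunoglobulin A, measured 1.25, 0.45 and 0.905 CPM at 7 days and 880.5, 436 and 301 CPM at 6 weeks, and Jchain, which joins its units, 4.88, 4.5 and 5.18 CPM at 7 days and 160.1, 71.6 and 50.4 CPM at 6 weeks. Jchain had a log2 fold change of -4.27, or -3.65 without 6-week replicate 1. Among 18 markers of T cells and NK cells 6 fell and 1 rose. The falls were in NK cell and cytotoxic genes such as Prf1 (perforin, 11.4-fold lower) and Ncr1 (7.19-fold lower), and Cd3g was the member that rose, among 3 without 14-day replicate 1 and 2 without 2-day replicate 2. Of 12 dendritic cell markers 6 fell and 3 rose. Itgax, which encodes CD11c and which some neutrophils carry, measured 10.2, 10.5 and 9.93 CPM at 7 days and 179.7, 150.5 and 172 CPM at 6 weeks, and Siglech, of plasmacytoid dendritic cells, rose 3.58-fold at 3.28 ± 0.557 CPM against 0.912 ± 0.263 CPM. The MHC class II gene H2-Ab1 measured 144, 106 and 126 CPM at 7 days and 687, 531 and 526 CPM at 6 weeks.

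**Figure D5:**
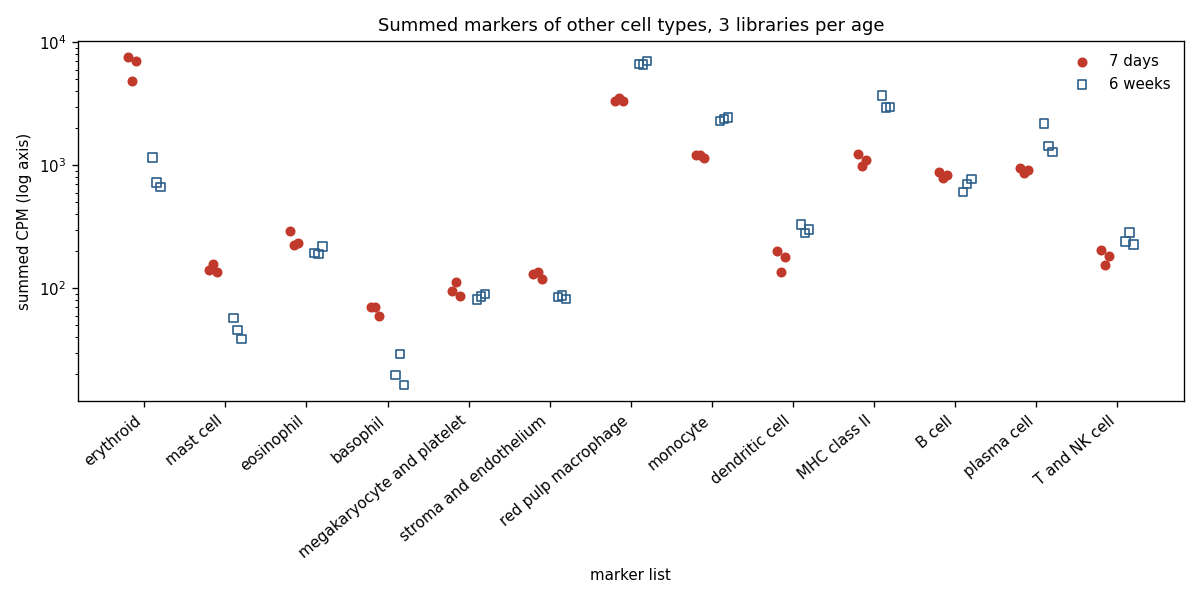
Summed CPM on a log axis (y axis) of the markers of 13 other cell types in each 7-day library (filled circles) and each 6-week library (open squares), Hdc and Vim left out. Erythroid, mast cell and basophil sums lie higher at 7 days, and red pulp macrophage, monocyte and MHC class II sums lie lower.

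Metabolic genes moved by list. Of 26 genes of glycolysis and the pentose phosphate path 18 fell and 1 rose. Slc2a1, the glucose transporter, measured 45.7, 54.5 and 46.3 CPM at 7 days and 234, 129.8 and 138 CPM at 6 weeks (3.42-fold lower), and G6pdx, which supplies NADPH to the oxidase, 356, 483 and 371 CPM at 7 days and 725, 1022 and 826 CPM at 6 weeks (2.13-fold lower). Pkm, the last enzyme of glycolysis, fell 1.4-fold, a call lost without 7-day replicate 1 or 3 or any 1 of the 6-week libraries (log2 fold changes -0.41, -0.42, -0.49, -0.47 and -0.50 in place of -0.49). Gpi1, Pgk1 and Tkt, at 1747 ± 159 CPM against 1674 ± 69 CPM, 341 ± 57.1 CPM against 326 ± 21.4 CPM and 1492 ± 108 CPM against 1270.1 ± 176 CPM, did not pass, though Gpi1 and Tkt passed with library totals alone. Pfkm, a phosphofructokinase subunit, rose 5.89-fold. Of 27 genes of cholesterol synthesis and uptake 18 fell and 0 rose (1 rose without any 1 of the 2-day libraries, 6-week replicate 2 or 14-day replicate 2). Of 22 genes of lipid uptake and droplets 8 rose and 6 fell: Plin2, the coat of lipid droplets, measured 326, 393 and 327 CPM at 7 days and 133, 129 and 122 CPM at 6 weeks (2.73-fold higher), and Pnpla2, the lipase that empties them, fell 3.77-fold. Without 6-week replicate 1 the rises in that list were 5. Of 42 nuclear genes of oxidative phosphorylation 15 rose and 3 fell, Cycs (cytochrome c) 3.29-fold higher, and the falls were 0 without 7-day replicate 3 or 6-week replicate 3 or when scaled by library totals alone, and 1 without 7-day replicate 1 or 2, 6-week replicate 1, 14-day replicate 2 or 2-day replicate 3. Of 48 cytosolic ribosomal protein genes 39 rose and 1 fell, with a median log2 fold change of 0.63. Scaled by library totals alone, 40 rose. The sum for ribosomal proteins was 13187 to 17626 CPM at 7 days and 10656 to 11677 CPM at 6 weeks. Rps4x measured 729.95, 519.7 and 711 CPM at 7 days and 368, 322 and 348 CPM at 6 weeks, with 7-day replicate 2 the lowest of its age. Ribosomal protein genes have many processed copies, so how their reads were divided is uncertain.

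Of 24 genes of the unfolded protein response, the stress response of the endoplasmic reticulum, 5 rose and 7 fell, or 4 scaled by library totals alone. Hspa5, its main chaperone, stood at 522 ± 14.2 CPM against 469.9 ± 24.7 CPM and did not pass, except when scaled by library totals alone. Hsp90b1, the reticulum's heat-shock 90, rose 1.93-fold, and Ern1, a sensor of unfolded protein, fell 3.19-fold. Of 19 hypoxia response genes 3 rose and 9 fell, among them Bnip3, a mediator of mitochondrial clearance (6.79, 9.32 and 8.37 CPM at 7 days and 51.1, 28.4 and 42.6 CPM at 6 weeks). Of 14 Bcl2 family genes 2 rose, or 1 without 6-week replicate 3, and 10 fell. Mcl1, on which neutrophil survival depends, measured 736, 864 and 741 CPM at 7 days and 2393, 1428 and 1735 CPM at 6 weeks (2.37-fold lower). Of 23 antioxidant enzymes 6 rose and 8 fell: Prdx2, abundant in red cells, rose 3.8-fold and Gsr, glutathione reductase, fell 2.32-fold.

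Fetal-type regulators and imprinted growth genes were higher where they differed. Of 20 measured, 13 rose and 0 fell, 8 when only genes of higher counts were tested. Igf2bp3, which binds mRNA in fetal blood progenitors, measured 21.6, 25.2 and 23.4 CPM at 7 days and 0.976, 0.742 and 1.07 CPM at 6 weeks, 25.1-fold higher (log2 fold change 4.65, SE 0.19, adjusted p = 1.32e-08). Lin28b, which blocks the maturation of let-7 microRNAs, measured 0.956, 0.609 and 1.18 CPM at 7 days against 0 counts at 6 weeks, at least 11.2-fold higher. Hmga2, a chromatin protein that let-7 represses, stood at 2.28 ± 0.151 CPM against 0.715 ± 0.246 CPM, and Hmga1 rose 2.35-fold. The imprinted genes Grb10, which restrains growth, and H19 measured 11.8, 8.76 and 12.1 CPM and 1.45, 0.556 and 1.33 CPM at 7 days and 0.112, 0.344 and 0.219 CPM and 0.0279, 0 and 0.191 CPM at 6 weeks. Without 6-week replicate 3 the log2 fold change of H19 was 6.04 in place of 3.88. Igf2, the growth factor encoded beside H19, was at 0.491 ± 0.0795 CPM against 0.0992 ± 0.0394 CPM and rose, except in limma-voom. Against 2 days 14 of the 20 were lower at 7 days and 1 higher, and against 14 days 12 were higher and 0 lower. Markers of stromal cells, which also transcribe imprinted genes, rose too: Col1a2 and Col3a1, collagens of fibroblasts, measured 2.94, 4.21 and 2.97 CPM and 2.67, 4.1 and 2.64 CPM at 7 days and 0.112, 0.159 and 0.137 CPM and 0.195, 0.053 and 0.0547 CPM at 6 weeks. Without 6-week replicate 1 the log2 fold change of Col3a1 was 5.78 in place of 4.92. Their part was not tested. Of the comparisons used here as a reference, 48.7% of all genes differed between 7 days and 2 days and 45.9% between 7 days and 14 days.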

How the data were processed

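RNA of Ly6G+ spleen cells was sequenced in 12 libraries, 3 at each of 4 ages, and the authors deposited a table of whole-number counts per gene. The submitters' processing notes name RSEM 1.2.3, DESeq2 with no version and mm10, without their roles, so the counts may be rounded estimates. Whether strand was used is not given in the sources used here, so reads of overlapping, antisense and near-identical genes may be divided between them. Symbols for 37570 of 38887 gene identifiers came from GENCODE M21 (GRCm38), and the 1317 without one held 0.38% of counts.

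Counts were scaled by TMM and tested in edgeR 4.0.16 (R 4.3.3) with the quasi-likelihood F-test. The model held all 12 libraries and the 4 ages, filterByExpr used a minimum count of 10, and p-values were adjusted by Benjamini-Hochberg over all genes tested. CPM used TMM library sizes. Folds against 0 counts used a floor of 3 counts in each library of that age. The scripts were tested on simulated data. Alternatives were DESeq2 1.42.0 and its size factors, limma-voom (limma 3.58.1), library totals, no filter, a minimum count of 50, only the 2 ages, a replicate block and leaving out each library.

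The genes named were the 10 largest rises and falls of at least 20 CPM and, in each of 43 lists, the 3 highest in CPM, the 3 smallest p-values and the largest change each way, with genes of the study's theme, from which some were left out for length. Others were chosen after their values were seen: Adgre1, Bnip3, Cd101, Cd34, Cd5l, Cmpk2, Col3a1, Cxcl2, Dnaja1, Dnajb1, Eif2ak2, Entpd1, Fcnb, G6pdx, Hsp90ab1, Hspd1, Hspe1, Hsph1, Ifit1, Ifitm1, Il5ra, Mcm6, Mcm7, Mmp8, Mrgprb1, Myc, Ncr1, Nlrc5, Nlrp3, Pgk1, Prtn3, Ptgs1, Rrm2, Rsad2, Samd9l, Selplg, Stfa2l1, Tlr2, Tlr4, Tnfsf14, Tph1, Tpsab1 and Vegfa. Of the listed symbols 5 were not in the table. The members and lists were chosen with earlier results of these data known. Some genes the rule names are not reported here.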

Additional observations from a re-analysis of the deposited data

How the results depend on the processing

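Under 20 alternatives, 12 of which left out 1 library each, the counts called over all genes stayed within 1.5 times those reported. Counts of list members that rose or fell were less steady. Of 1720 such counts 86 moved by more than 1.5 times, or to or from 0. For 7 days against 6 weeks the genes higher ran from 3066 to 4726 and the genes lower from 3263 to 4600 as single libraries were left out. With a replicate block they were 3555 and 3904. Same-numbered libraries did not deviate together (correlations of -0.0427, -0.103 and -0.0532), so the numbers were not taken to pair them. Scaled by library totals alone 4563 genes were higher and 3137 lower, and then 3 genes of glycolysis rose and 0 basophil markers fell. Of 3877 values for the genes named, 3793 kept their direction and side of the threshold, 36 lost the call, 37 gained it and 11 changed sign. The changes of sign were all in genes without a call: with library totals Bst2 was at 0.093 and Ltf at 0.065, and as single libraries were left out the log2 fold change ran from -0.059 to 0.23 for Cybb, -0.0056 to 0.16 for Gpi1, -0.043 to 0.42 for Kit, -0.27 to 0.11 for Ltf, -0.39 to 0.025 for Ngp, -0.95 to 0.57 for Nos2, -0.075 to 0.17 for Pgk1 and -0.040 to 0.59 for Xist. The cause was not tested. With 3 libraries an age, small changes near the threshold depend on single libraries, and genes below 1 CPM rest on few counts.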

Other observations

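Genes of early B cell precursors were higher at 7 days. Except for Rag1 they were chosen after their values were seen, and they form no tested list. Rag1, which cuts receptor genes for recombination, measured 34.2, 29.3 and 35.9 CPM at 7 days and 0, 0.159 and 0.137 CPM at 6 weeks (adjusted p = 1.09e-06 in edgeR). Its partner Rag2 averaged 1.57 CPM at 7 days and had 0 counts at 6 weeks. Dntt, which adds bases at the joins, averaged 4.48 CPM at 7 days against 0.1 CPM at 6 weeks, and the surrogate light chain genes Vpreb1 and Igll1 averaged 4.05 and 3.52 CPM against 0.153 and 0.0088 CPM. Vpreb3 was at 10.7 CPM against 3.79 CPM. All 6 were called higher at 7 days. Il7r, the receptor for interleukin 7, was at 6.56 CPM against 3.6 CPM and did not pass (adjusted p = 0.109).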
